A study of Mus musculus with 8 samples.

Results

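Expression of 10 regulators of naive pluripotency, Tcl1, Tbx3, Klf4, Tfcp2l1, Esrrb, Prdm14, Nr5a2, Nr0b1, Klf5 and Klf2, was followed in mouse embryonic stem cells (ESCs) that depended on a WDR5 transgene. The genes were chosen by name, with earlier results of these data known. A probe set was counted for a gene only if that gene was its sole symbol in the array annotation. This gave 24 of the 34945 probe sets with a single symbol, for 10 of 18193 genes. Of these, 18 probe sets exceeded a linear signal of 50 on 1 array or more, the minimum used. All 10 genes passed it, among 11940 genes tested. Tcl1 encodes a coactivator of the kinase AKT, and the others encode transcription factors or cofactors.

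The cells were V6.5 mouse ESCs carrying a lentiviral shRNA against mouse Wdr5 in every group, sorted for GFP, and grown in medium with LIF on gelatin. They also carried an inducible human WDR5 transgene for wild-type WDR5 (WT) or for F266A, an exchange in the cleft of WDR5 that binds RNA. WDR5 is an adaptor of the MLL complexes, which methylate histone H3 at lysine 4. Each line was grown without doxycycline (-dox) or with 2 µg per mL (+dox), which gave 4 groups of 2 biological duplicates, F266A -dox, F266A +dox, WT -dox and WT +dox. WT +dox was taken to carry the most WDR5 function and F266A -dox the least, though the arrays do not measure that function. The sources used here do not settle the order of F266A +dox and WT -dox. By the study's methods, sorted cells for RNA analysis were kept with or without doxycycline for several days before harvest. The study saw less F266A than WT protein by western blot. No independently made second line of either kind is described, so the comparisons between lines set these particular lines against each other. Because the shRNA is shared, V6.5 cells with normal Wdr5 expression are not among the groups.

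Mouse ESCs in the naive state resemble the epiblast before implantation. The state is held by LIF, which acts through STAT3, by WNT signalling, which relieves repression by Tcf7l1, and by low FGF and ERK signalling. These inputs converge on a set of factors that support one another's transcription and that are switched off as cells move towards the primed epiblast. Pou5f1 and Sox2, in contrast, are shared by naive and primed cells.

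The 8 Affymetrix arrays correlated at 0.997 to 0.998 between duplicates and at 0.985 to 0.996 between groups, over all probe sets. Values are log2 expression after robust multi-array averaging, so a difference of 1 is a 2-fold change. Errors after ± are standard errors of a difference between group means from a limma fit across all genes, with 2 arrays in each group, and calls required an adjusted p below 0.05. The ESC markers Pou5f1, Sox2 and Nanog averaged 12.77, 12.16 and 11.85 in F266A -dox, well above the minimum of 5.64. Wdr5, the gene targeted by the shRNA, gave 9.31 and 9.27 in F266A -dox, 8.59 and 8.56 in F266A +dox, 9.45 and 9.35 in WT -dox, and 8.35 and 8.32 in WT +dox. Its signal was higher without doxycycline in both lines. The 18S rRNA control probe set read 9.60 and 9.57 in F266A -dox, 10.61 and 10.35 in F266A +dox, 11.13 and 10.78 in WT -dox, and 11.42 and 10.99 in WT +dox. It was lowest in F266A -dox, as were all 10 genes, and its part in the results was not tested. Probe sets differ in affinity, so levels are compared between groups and never between genes. In bulk RNA, fewer cells of a type and less RNA per cell cannot be told apart.

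All 10 genes were lower in F266A -dox than in WT +dox. The median difference was -1.01, against 0.00 over all genes tested. All 10 were called, where 25.0% of the 11940 genes were called lower and 50.9% in either direction. Since the genes were chosen with earlier results of these data known, such shares are background and not a test. All 10 also had both F266A -dox arrays below both WT +dox arrays, as did 36.8% of all genes. Tcl1, Tbx3, Klf4, Tfcp2l1 and Esrrb fell at least 2-fold, a drop reached by 2.12% of all genes. With no minimum, which averages dim probe sets into some genes, Tfcp2l1 (-0.44) and Tbx3 (-0.89) did not reach it. In all, 5 comparisons set F266A -dox against another group or another group against WT +dox. The same 5 genes were called lower in each of them, as were 3.14% of all genes. Those comparisons share arrays, and Tfcp2l1 was called in 2 of the 5 with no minimum. For 8 of the 10, WT +dox had the highest mean and F266A -dox the lowest, an order found in 22.2% of all genes. The exceptions, Klf2 and Nr0b1, were highest in WT -dox.

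**Figure D1:**
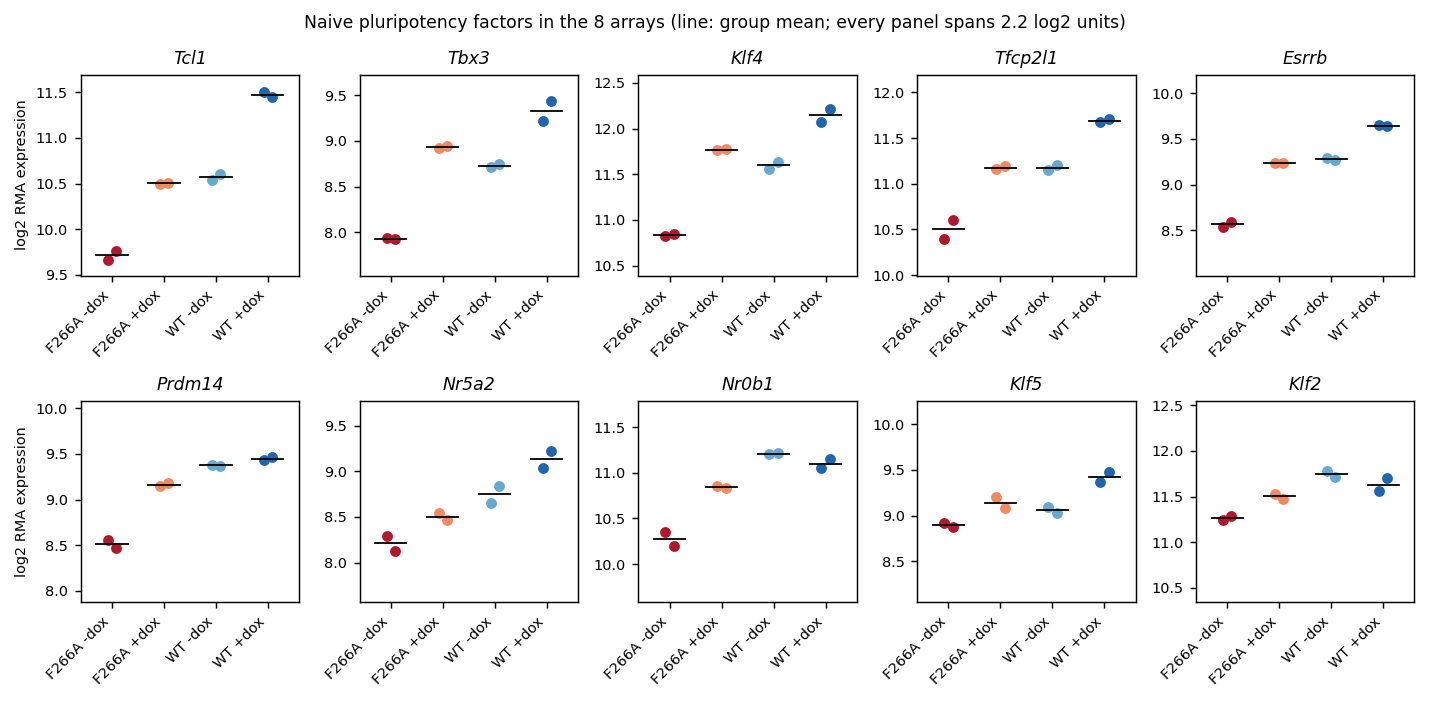
Expression of each of the 10 genes (y axis, log2 RMA value) in the 4 groups (x axis), with a point for each array and a line at the group mean; every panel spans the same number of log2 units. Tcl1, Tbx3, Klf4, Tfcp2l1 and Esrrb are lowest in F266A -dox and highest in WT +dox, with both other groups between, whereas Nr0b1 and Klf2 are highest in WT -dox.

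Promoter sequences are shown for 4 of the 5 genes that fell in every such comparison and for Klf2, whose mean in WT -dox was above that in WT +dox. Windows of 250 bases before the annotated start were taken from RefSeq (mouse build GRCm38.p6). Of the 10 genes, 7 matched, with 9 windows. Klf5, Tbx3 and Prdm14 had no entry. Each is written 5′ to 3′ on the strand of its gene and ends at the base before the start, and capitals mark matches to the motifs searched. The windows lie at chr12:105222738-105222987 on the minus strand for Tcl1, chr1:118627695-118627944 on the plus strand for Tfcp2l1, chr4:55532476-55532725 on the minus strand for Klf4, chr12:86360867-86361116 on the plus strand for the first of 2 Esrrb windows, and chr8:72318812-72319061 on the plus strand for Klf2.
Tcl1: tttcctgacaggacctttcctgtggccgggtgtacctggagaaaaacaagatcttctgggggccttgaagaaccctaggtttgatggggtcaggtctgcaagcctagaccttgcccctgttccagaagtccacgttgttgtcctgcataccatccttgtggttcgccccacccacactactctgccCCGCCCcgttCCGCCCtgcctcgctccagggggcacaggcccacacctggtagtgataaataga
Tfcp2l1: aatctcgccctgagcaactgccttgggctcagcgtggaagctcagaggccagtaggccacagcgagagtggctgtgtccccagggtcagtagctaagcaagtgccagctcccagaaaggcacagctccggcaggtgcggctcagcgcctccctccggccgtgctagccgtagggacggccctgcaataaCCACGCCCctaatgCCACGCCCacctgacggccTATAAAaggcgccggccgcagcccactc
Klf4: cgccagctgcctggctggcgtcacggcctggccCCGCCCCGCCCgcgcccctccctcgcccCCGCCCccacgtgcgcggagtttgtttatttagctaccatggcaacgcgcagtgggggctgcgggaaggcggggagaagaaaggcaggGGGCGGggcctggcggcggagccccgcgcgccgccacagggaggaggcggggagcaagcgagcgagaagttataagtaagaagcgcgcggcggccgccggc
Esrrb: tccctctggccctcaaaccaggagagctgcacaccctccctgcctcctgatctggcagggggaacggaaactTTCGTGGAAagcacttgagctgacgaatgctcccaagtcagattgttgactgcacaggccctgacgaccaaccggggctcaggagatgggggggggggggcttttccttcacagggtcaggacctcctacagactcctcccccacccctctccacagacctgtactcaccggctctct
Klf2: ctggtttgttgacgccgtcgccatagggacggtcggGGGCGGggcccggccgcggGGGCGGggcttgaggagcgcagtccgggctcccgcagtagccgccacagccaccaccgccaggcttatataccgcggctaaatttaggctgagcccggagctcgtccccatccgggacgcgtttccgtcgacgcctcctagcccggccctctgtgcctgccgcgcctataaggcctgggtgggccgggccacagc

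In all, 9 motifs were searched on both strands. The capitals in Tcl1, Klf4 and Klf2 are GC boxes (GGGCGG or its complement CCGCCC), which 32.7% of the 32851 RefSeq windows of this length hold. Tfcp2l1 carries a pair of KLF sites (GGGNGTGG, here as CCACGCCC), which begin 61 and 47 bases before the start, and a TATA box (TATAAA) at 28. A KLF site lies in 15.9% of all windows and in 2 of the 9 of these genes, the other being one of 2 Nr5a2 windows. TATA boxes lie in 12.4% of all windows and in 3 of the 9 of these genes. These are Tfcp2l1, Nr0b1 (at 32) and 1 of the 2 Nr5a2 windows, there on the other strand (TTTATA) at 181. In Esrrb the capitals are a STAT site (TTCNNNGAA), which 7.02% of windows hold. No match was found in the 9 windows for the ESRRB site TCAAGGTCA (0.387% of all windows), its inner half-site AAGGTCA (4.08%), the octamer ATGCAAAT (1.60%), the TFCP2L1 site, CCAG repeated after a gap of 6 bases (2.78%), or the TCF/LEF site ATCAAAG (3.21%). The half-site lies within the ESRRB site, so every match of the longer one is also a match of the shorter. A match says only that these letters are in the window.

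Tcl1 showed the largest difference of the 10 genes. Its product binds AKT and raises its activity, and the gene is abundant in naive ESCs. It read 9.66 and 9.76 in F266A -dox, 10.50 and 10.50 in F266A +dox, 10.54 and 10.61 in WT -dox, and 11.50 and 11.44 in WT +dox. The F266A +dox and WT -dox arrays lay between the other groups, and no 2 groups overlapped. F266A -dox differed from WT +dox by -1.76 ± 0.07, or 3.38-fold (limma, adjusted p = 2.18e-07), which ranked Tcl1 35th from the bottom among all genes. The steps were -0.90 ± 0.07 for WT -dox against WT +dox, -0.97 ± 0.07 for F266A +dox against WT +dox, and -0.79 ± 0.07 for F266A -dox against F266A +dox.

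Klf4 and Tbx3 had the most similar profiles of any 2 of the 10 genes. Klf4 is a zinc finger factor induced by LIF and STAT3 in mouse ESCs and one of the original reprogramming factors. It read 10.83 and 10.85 in F266A -dox, 11.76 and 11.78 in F266A +dox, 11.55 and 11.64 in WT -dox, and 12.07 and 12.22 in WT +dox. The F266A -dox arrays stood well below all others. Klf4 was 2.48-fold lower in F266A -dox than in WT +dox (-1.31 ± 0.07, adjusted p = 1.07e-06). Withdrawal of doxycycline gave -0.93 ± 0.07 in the F266A line and -0.55 ± 0.07 in the WT line. Both Klf4 probe sets gave -1.31 between the extremes.

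Tbx3 is a T-box factor that sustains naive ESCs when LIF signalling is reduced. Its arrays read 7.93 and 7.92 in F266A -dox, 8.93 and 8.95 in F266A +dox, 8.72 and 8.74 in WT -dox, and 9.22 and 9.43 in WT +dox. Tbx3 fell 2.63-fold between the extremes (-1.39 ± 0.08, adjusted p = 1.30e-06). It was the only one of the 10 genes to fall at least 2-fold on withdrawal within the F266A line (-1.01 ± 0.08, adjusted p = 0.000208), as did 0.109% of all genes. The difference on withdrawal in the WT line was -0.60 ± 0.08. Its 3 probe sets above the minimum fell by 1.12, 1.37 and 1.70 on the log2 scale between the extremes, and 2 further probe sets were under the minimum on every array.

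Among the other KLF factors, Klf5, which like Klf4 responds to LIF in mouse ESCs, fell less. It read 8.92 and 8.87 in F266A -dox, 9.20 and 9.08 in F266A +dox, 9.09 and 9.03 in WT -dox, and 9.36 and 9.48 in WT +dox. The arrays of F266A +dox and WT -dox overlapped. F266A -dox differed from WT +dox by -0.53 ± 0.07 (adjusted p = 0.000307). Between the extremes the 2 Klf5 probe sets above the minimum were both called lower, 1451021_a_at by -0.48 ± 0.08 and 1451739_at by -0.57 ± 0.14. Their values on withdrawal were less alike, and the difference between them was not tested. On withdrawal, 1451021_a_at gave -0.06 ± 0.08 in the F266A line, where it was not called, and -0.47 ± 0.08 in the WT line. 1451739_at gave -0.44 ± 0.14 in the F266A line and -0.25 ± 0.14 in the WT line and was called in neither.

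Klf2 changed least. It is a factor that in mouse ESCs is lost when ERK is active and that is kept by ERK pathway inhibitors. Its single probe set read 11.25 and 11.28 in F266A -dox, 11.53 and 11.47 in F266A +dox, 11.78 and 11.71 in WT -dox, and 11.56 and 11.70 in WT +dox. Klf2 was lower in F266A -dox than in WT +dox by a factor of 1.29 (-0.37 ± 0.07, adjusted p = 0.00235). In the WT line withdrawal gave 0.11 ± 0.07, with a 95% interval from -0.05 to 0.28 (adjusted p = 0.266). Klf2 lies on chromosome 8, where the median of 652 genes was 0.20 in F266A -dox minus WT +dox, against -0.01 over the other chromosomes. The part of this shift in the Klf2 value was not tested.

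Of the nuclear receptors, Esrrb fell most. Esrrb is an orphan estrogen-related receptor whose gene is derepressed in mouse ESCs when WNT signalling removes Tcf7l1. It read 8.54 and 8.59 in F266A -dox, 9.24 and 9.24 in F266A +dox, 9.29 and 9.27 in WT -dox, and 9.65 and 9.64 in WT +dox. Duplicates differed by at most 0.06, and F266A +dox and WT -dox stood side by side. Between the extremes Esrrb was 2.12-fold lower in F266A -dox (-1.08 ± 0.06, adjusted p = 1.44e-06). Its 3 probe sets fell by 0.96, 1.08 and 1.21 on the log2 scale.

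Nr5a2 (LRH-1) is a receptor that binds regulatory regions of Pou5f1. It read 8.30 and 8.13 in F266A -dox, 8.54 and 8.47 in F266A +dox, 8.66 and 8.84 in WT -dox, and 9.04 and 9.22 in WT +dox. No 2 groups overlapped, and F266A +dox and WT -dox were the closest neighbours. F266A -dox differed from WT +dox by -0.92 ± 0.10 (adjusted p = 4.87e-05) and F266A +dox from WT +dox by -0.62 ± 0.10 (adjusted p = 0.00132). On withdrawal in the F266A line the difference was -0.29 ± 0.10 (adjusted p = 0.0617), which was not called. It was called under 5 of the other settings, with differences of -0.31 to -0.28 and adjusted p values of 0.0186 to 0.0497. The call on withdrawal in the WT line (-0.38 ± 0.10, adjusted p = 0.0150) did not hold once WT +dox replicate 2 (-0.29, adjusted p = 0.0983) or WT -dox replicate 1 (-0.29, adjusted p = 0.111) was dropped.

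Nr0b1 (DAX1) lacks a conventional DNA-binding domain and restrains other nuclear receptors and, in mouse ESCs, OCT4. It read 10.35 and 10.20 in F266A -dox, 10.86 and 10.84 in F266A +dox, 11.21 and 11.21 in WT -dox, and 11.05 and 11.15 in WT +dox. All F266A arrays lay below all WT arrays. Nr0b1 was 1.92-fold lower in F266A -dox than in WT -dox (-0.94 ± 0.07, adjusted p = 4.13e-05), the largest difference of the 10 genes in that comparison. F266A +dox was lower than WT +dox by -0.25 ± 0.07 (adjusted p = 0.0315). That call was lost without any 1 of the 4 arrays of those groups, with differences of -0.31 to -0.20 and adjusted p values of 0.0507 (without WT +dox replicate 1) to 0.157 (without WT +dox replicate 2).

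Tfcp2l1 is a CP2 family factor and a main target of STAT3 in mouse ESCs. It read 10.40 and 10.60 in F266A -dox, 11.16 and 11.19 in F266A +dox, 11.15 and 11.20 in WT -dox, and 11.67 and 11.71 in WT +dox. F266A +dox and WT -dox overlapped and had the same mean to 2 decimals, 11.18. Between the extremes Tfcp2l1 was 2.28-fold lower in F266A -dox (-1.19 ± 0.08, adjusted p = 3.16e-06). This value rests on 1 of its 3 probe sets, since 1460714_at and 1460715_x_at were under the minimum on every array.

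Prdm14 encodes a PR domain protein that in mouse ESCs represses Dnmt3b and components of FGF signalling. It read 8.55 and 8.47 in F266A -dox, 9.14 and 9.18 in F266A +dox, 9.38 and 9.37 in WT -dox, and 9.43 and 9.46 in WT +dox. Both WT groups were within 0.1 log2 units of each other, and F266A -dox stood far below. The difference from WT +dox was -0.94 ± 0.06 in F266A -dox (adjusted p = 4.05e-06) and -0.29 ± 0.06 in F266A +dox (adjusted p = 0.00996). The call in F266A +dox did not hold once WT +dox replicate 2 (-0.27, adjusted p = 0.0529) or F266A +dox replicate 1 (-0.27, adjusted p = 0.0651) was dropped. Dnmt3b, which is a primed epiblast gene as well, averaged 11.92 in F266A -dox, 11.06 in F266A +dox, 11.45 in WT -dox and 9.81 in WT +dox.

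**Figure D2:**
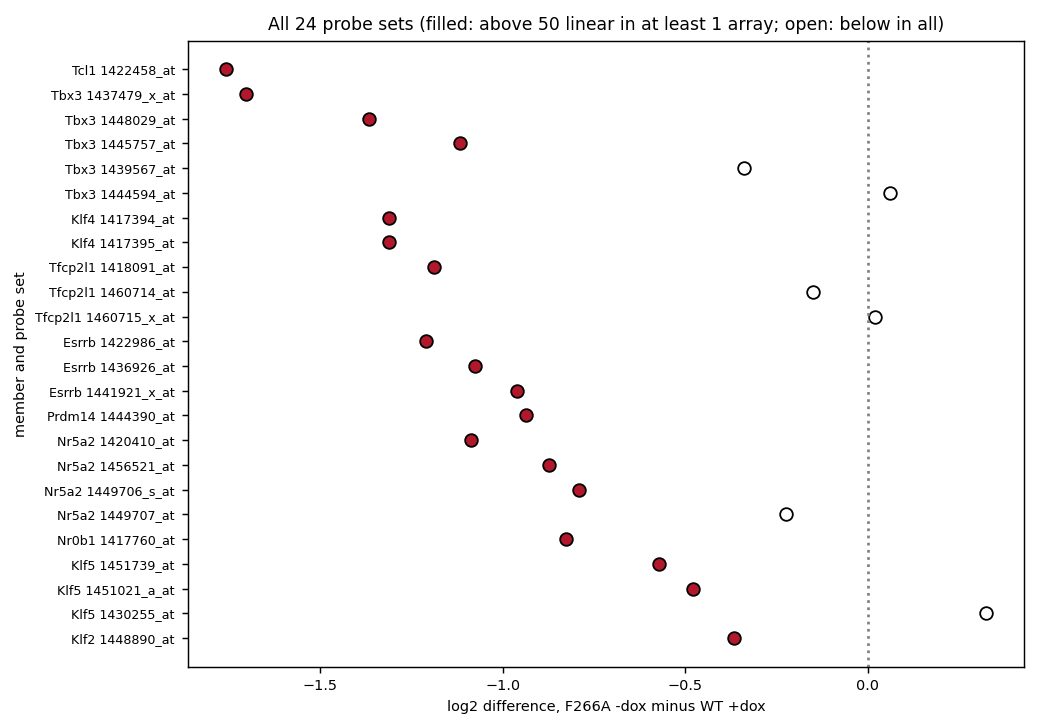
Difference between F266A -dox and WT +dox (x axis, log2) for all 24 probe sets of the 10 genes (y axis), filled where the linear signal exceeded 50 on 1 array or more and open where it did not. The 18 filled points run from Tcl1 at -1.76 to Klf2 at -0.37, while the 6 open points lie between -0.34 and 0.32.

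Doxycycline was next withdrawn from the WT line. Every group carried an inducible transgene, so loss of the drug and loss of transgene expression cannot be told apart. The same holds for withdrawal in the F266A line. In WT -dox, 7 of the 10 genes were called lower than in WT +dox, where 15.4% of all genes were called lower and 31.5% in either direction. The median difference was -0.37, against 0.00 over all genes. Tcl1 (-0.90), Tbx3 (-0.60), Klf4 (-0.55) and Tfcp2l1 (-0.51) changed most, followed by Nr5a2, Esrrb and Klf5 at -0.38 to -0.36. Prdm14 (-0.07 ± 0.06), Nr0b1 (0.11 ± 0.07) and Klf2 (0.11 ± 0.07) were not called, with 95% intervals of -0.22 to 0.07, -0.06 to 0.28 and -0.05 to 0.28.

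The lines were compared in the presence of doxycycline as F266A +dox against WT +dox. Mutation, line and the lower amount of F266A protein cannot be told apart in this comparison. Here 9 of the 10 genes were called lower, against 12.5% of all genes called lower and 28.3% in either direction, with a median of -0.38. Tcl1 (-0.97), Nr5a2 (-0.62) and Tfcp2l1 (-0.51) showed the largest differences, and Klf2 (-0.13 ± 0.07) was not called. The Klf5 call (-0.28 ± 0.07, adjusted p = 0.0214) did not hold once WT +dox replicate 2 (-0.22, adjusted p = 0.121) or F266A +dox replicate 2 (-0.22, adjusted p = 0.123) was dropped. This comparison and withdrawal in the WT line share both WT +dox arrays.

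Removal of doxycycline from the F266A line gave 9 of the 10 genes called lower, against 10.6% of all genes called lower and 19.5% in either direction. The median was -0.66. Tbx3 (-1.01), Klf4 (-0.93) and Tcl1 (-0.79) showed the largest differences, followed by Tfcp2l1 and Esrrb (both -0.67), Prdm14 (-0.65) and Nr0b1 (-0.57). Tbx3 ranked 13th and Klf4 21st from the bottom among all genes. The calls of Klf5 (-0.25 ± 0.07, adjusted p = 0.0432) and Klf2 (-0.24 ± 0.07, adjusted p = 0.0475) stood near the threshold. Both were lost when any 1 array of F266A -dox, F266A +dox or WT -dox was left out, with values of -0.31 to -0.19 and adjusted p values of 0.0640 to 0.231 for Klf5, and of -0.26 to -0.21 and 0.0693 to 0.204 for Klf2.

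Both lines without doxycycline, where neither transgene was induced, were then set side by side. Mutation and line cannot be told apart in this comparison either. In F266A -dox, 9 of the 10 genes were called lower than in WT -dox, against 13.4% of all genes called lower and 27.4% in either direction. The median was -0.74, larger in size than in either comparison with a single change from WT +dox. Nr0b1 (-0.94), Prdm14 and Tcl1 (both -0.86) and Tbx3 (-0.80) led. Klf5 (-0.17 ± 0.07, adjusted p = 0.128) was not called.

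**Figure D3:**
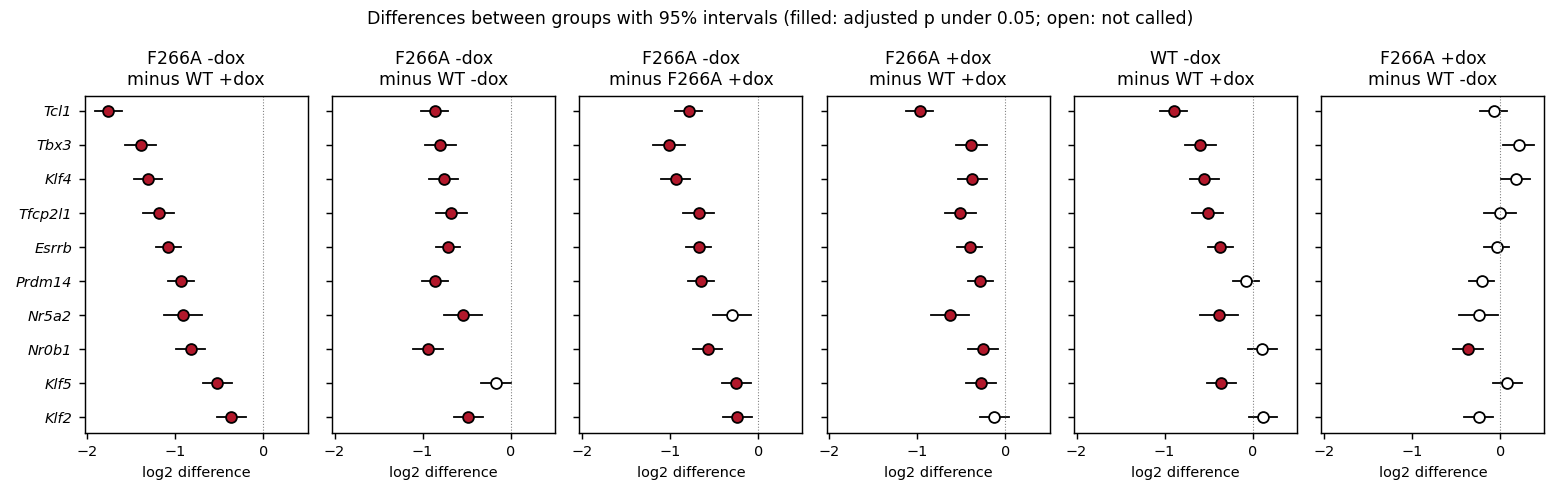
Differences between group means (x axis, log2) of the 10 genes (y axis) in 6 comparisons, with 95% intervals from the limma fit; filled points were called at an adjusted p under 0.05. Every filled point lies left of 0, and in the last panel, F266A +dox minus WT -dox, only Nr0b1 is filled.

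The groups between the extremes, F266A +dox and WT -dox, were compared with each other. Only Nr0b1 was called, lower in F266A +dox (-0.36 ± 0.07, adjusted p = 0.0125), where 4.41% of all genes were called lower and 13.5% in either direction. This call was lost when any 1 of the 4 arrays was left out (-0.37 to -0.36, adjusted p = 0.0658 to 0.0700), and 2 to 4 genes were called under 5 of the other settings. The median over the 10 genes was -0.06. For the 9 others the differences ran from -0.25 for Nr5a2 (95% interval -0.46 to -0.03) to 0.21 for Tbx3 (0.03 to 0.39). They were near 0 for Tfcp2l1 (0.00, -0.18 to 0.18) and Esrrb (-0.04, -0.18 to 0.10). The intervals, which are not adjusted for the number of genes, also left out 0 for 3 further genes. These were Klf2 (-0.24, -0.41 to -0.08), Prdm14 (-0.21, -0.36 to -0.07) and Klf4 (0.18, 0.01 to 0.34). For Klf5 and Tcl1 the intervals held 0. Tbx3 and Klf4 had the higher mean in F266A +dox, and Nr5a2, Klf2, Prdm14 and Nr0b1 in WT -dox. The Tbx3 probe set 1437479_x_at was called higher in F266A +dox (0.31 ± 0.07, adjusted p = 0.0299), a call that was lost with a replicate block. The order of these groups was therefore not settled for 9 of the 10 genes. For Nr0b1 it rests on the call that was lost without any 1 of the 4 arrays.

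The response to withdrawal differed between the lines for Nr0b1 and Prdm14. In the test of the difference itself, the interaction of line and withdrawal, these 2 of the 10 genes were called, where 2.94% of all genes were called lower and 5.15% in either direction. Nr0b1 gave -0.57 in the F266A line and 0.11 in the WT line, an interaction of -0.68 ± 0.11 (adjusted p = 0.00924). Prdm14 gave -0.65 in the F266A line and -0.07 in the WT line, an interaction of -0.58 ± 0.09 (adjusted p = 0.00973). Neither was lost when any 1 array was left out, with adjusted p values of at most 0.0487. Interactions of Tbx3 (-0.41 ± 0.11), Klf4 (-0.38 ± 0.10), Klf2 (-0.35 ± 0.10) and Esrrb (-0.31 ± 0.09) missed the threshold, with adjusted p values of 0.0665 to 0.0867. All 4 were called with a trended and robust variance prior (adjusted p = 0.00273 to 0.0381). Klf4 and Tbx3 were also called with a minimum of 100 (adjusted p = 0.0425 and 0.0447), Klf2 and Klf4 after quantile normalization (0.0471 and 0.0485), and Tbx3 without WT +dox replicate 2 (-0.52, adjusted p = 0.0349). For Tcl1 the interaction was 0.11 ± 0.10, with a 95% interval from -0.11 to 0.33.

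**Figure D4:**
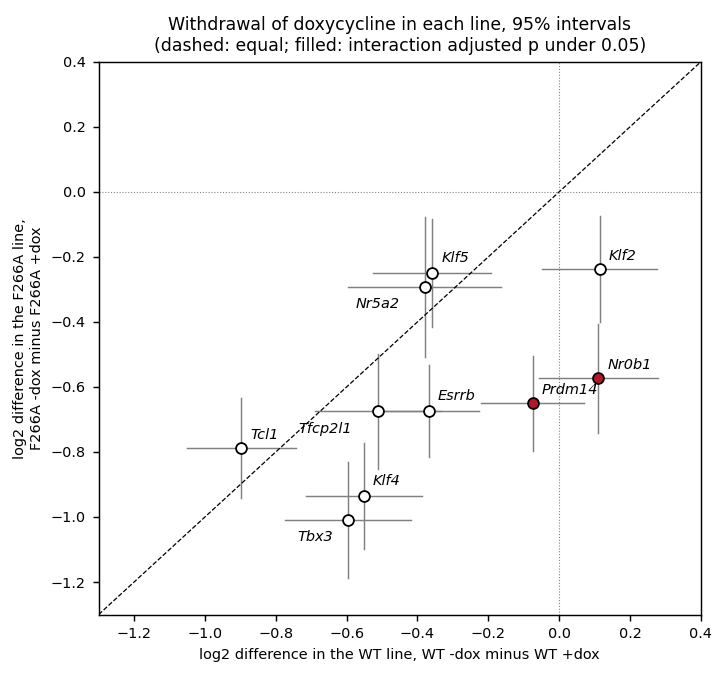
Withdrawal of doxycycline in the F266A line (y axis, F266A -dox minus F266A +dox, log2) against withdrawal in the WT line (x axis, WT -dox minus WT +dox, log2) for the 10 genes, with 95% intervals and a dashed line of equal change. Nr0b1 and Prdm14, filled, lie furthest below the dashed line, at -0.57 and -0.65 on the y axis against 0.11 and -0.07 on the x axis.

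Profiles were also compared over all 8 arrays, each gene centred on its own mean, by the root mean square distance in log2 units. Klf4 and Tbx3 were each other's nearest among all 11940 genes, at 0.0405. The next closest pairs within the 10 genes were Esrrb with Tfcp2l1 (0.0681) and Nr0b1 with Prdm14 (0.0773). For Klf2 the nearest gene was Zfp42 (0.0362), itself a marker of naive cells and also on chromosome 8. For Esrrb it was Ooep (0.0488), an oocyte and embryo gene, and for Tfcp2l1 it was Tex14 (0.0508). Prdm14 was nearest to Mymx (0.0458), Tcl1 to Ephx2 (0.0572), Nr5a2 to Elavl2 (0.0552), Nr0b1 to Acp6 (0.0768) and Klf5 to Eml5 (0.0328). Genes with small changes lie near many others by this measure, so its values for Klf2 and Klf5 are not comparable with those for Tcl1.

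Other genes tied to the naive state did not all move with these 10. Of 14 listed, 13 were measured, and 9 fell and 3 rose in F266A -dox against WT +dox, where 25.0% of all genes were called lower and 25.9% higher. Their median was -0.44. Jam2, a junctional adhesion molecule, fell by 1.46 on the log2 scale, Pecam1 by 1.12, Fgf4 by 1.04 and Nanog, a homeobox factor at the centre of the network, by 0.85. Gbx2, a homeobox gene that STAT3 induces in mouse ESCs, rose by 1.42. Dnmt3l, a cofactor of the DNA methyltransferases, rose by 1.16, and Dppa3 (Stella), which shields the maternal genome from demethylation in the zygote, by 0.79. Gbx2 averaged 7.53 in F266A -dox, 7.26 in F266A +dox, 8.02 in WT -dox and 6.11 in WT +dox, so that WT +dox was the lowest group. No gene of the 13 rose and 11 fell in F266A -dox against WT -dox, where 14.0% of all genes were called higher and 13.4% lower.

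Genes shared by naive and primed cells had a median difference of -0.09 between the extremes, against -1.01 for the 10 genes. Of 8 measured, 1 was called lower, Sox2 (-0.51), which fell further than Klf2 (-0.37). Lin28a, an RNA-binding protein, was called higher (0.59), and 6 were not called. Over all genes 25.0% were called lower and 25.9% higher. Pou5f1 averaged 12.77 in F266A -dox and 12.90 in WT +dox (-0.12 ± 0.08, adjusted p = 0.221). Of 8 components of the LIF and WNT inputs, 4 fell, Socs3 (-0.60), Lifr (-0.39), Il6st (-0.33) and Jak1 (-0.32), where 25.0% of all genes were called lower and 50.9% in either direction. Tcf7l1, the repressor of Esrrb in the WNT branch, rose (0.51 ± 0.08, adjusted p = 0.000641), so that 5 of the 8 were called. Socs3 is both an inhibitor and a transcriptional target of STAT3 signalling. Stat3 itself gave -0.16 ± 0.07 (adjusted p = 0.0836). On withdrawal in the WT line 0 of these 8 inputs were called by limma, where 31.5% of all genes were called. Tcf7l1 was the only one with an unadjusted p under 0.05 (0.24 ± 0.08).

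Primed epiblast genes were higher in F266A -dox. Of 12 measured of 13 listed, 8 averaged above the minimum of 5.64 in both F266A -dox and WT +dox, and all 8 rose between these groups, where 25.9% of all genes were called higher. Their differences ran from 0.29 for Nodal to 2.35 for Pou3f1. The 4 others, Fgf5, Cdh2, Zic2 and Sall2, averaged 7.26 to 7.90 in F266A -dox and 3.97 to 5.50 in WT +dox. They passed the minimum only through groups in which they were higher than in WT +dox, so they are not counted and the size of their change is not given. Fgf5, the classic epiblast marker, averaged 7.90 in F266A -dox and 5.86 in WT -dox. Its means in F266A +dox and WT +dox were under the minimum. Of 6 measured regulators of the exit from the naive state, 3 rose, Tfe3 (0.63), Etv5 (0.55) and Zfp281 (0.45), and Rbpj fell (-0.28). Over all genes 25.9% were called higher, 25.0% lower and 50.9% in either direction.

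Paralogs and family members of the 10 genes moved both ways. Of 21 measured of 29 listed, 9 fell and 4 rose between the extremes, where 25.0% of all genes were called lower and 25.9% higher, with a median of -0.11. Prdm1, which acts with Prdm14 in mouse germ cell specification, fell by 1.44 and Klf10 by 0.72. Klf6 rose by 1.33 and Klf7 by 0.97. Tcl1b3, a Tcl1 family member, fell by 0.33.

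**Figure D5:**
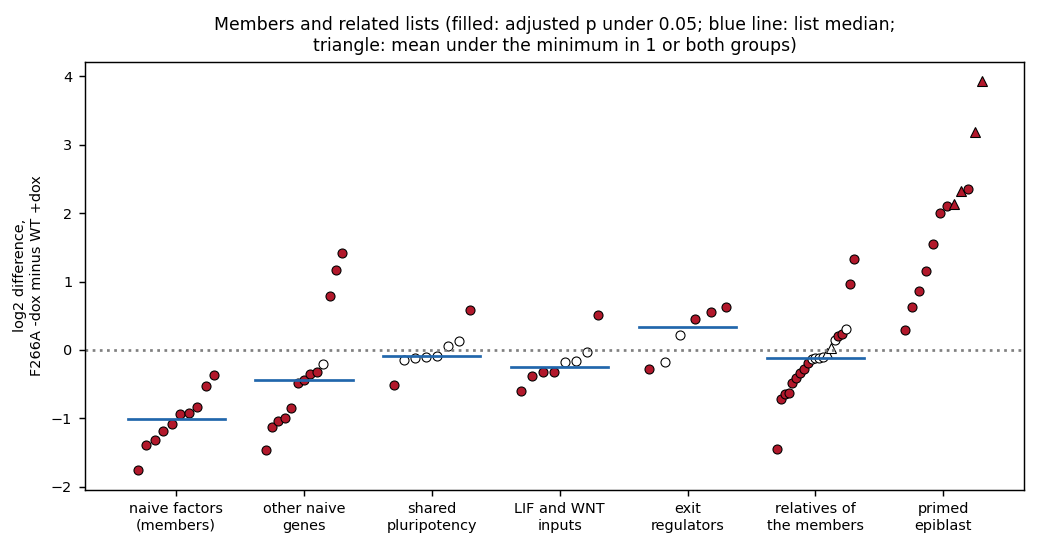
Difference between F266A -dox and WT +dox (y axis, log2) for every measured gene of 7 lists (x axis), filled where called, with a blue line at each list's median except for the primed genes and triangles where the mean was under the minimum in 1 or both groups. All 10 naive factors lie below 0 with a median of -1.01, while the 8 primed epiblast genes shown as circles lie between 0.29 and 2.35.

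Markers of other cells were read beside these results. The summed linear signal of 10 fibroblast genes was 5016 to 6238 in F266A -dox, 3958 to 4373 in F266A +dox, 2021 to 2096 in WT -dox and 1175 to 1206 in WT +dox. Of these, 6 (Col1a1, Col3a1, Thy1, Postn, Lum and Dcn) were under the minimum on every array, and Vim and Tagln rose by 2.17 and 2.48 between the extremes. Most of the sum comes from Tagln and Vim, which averaged 12.10 and 9.93 in F266A -dox on the log2 scale. Col1a2 and S100a4 averaged 6.42 and 5.87 there. The sum of 9 trophoblast genes was 1205 to 1274 in F266A -dox, 1183 to 1213 in F266A +dox, 1059 to 1075 in WT -dox and 1301 to 1335 in WT +dox, with Elf5 and Gata3 under the minimum throughout. For 8 primitive endoderm genes it was 242.6 to 252.6, 207.1 to 212.2, 215.5 to 220.7 and 202.5 to 208.9 in that order of groups, with Gata4, Sox17, Sox7 and Pdgfra under the minimum. The part of other cell types in the results was not tested.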

How the data were processed

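The series holds 8 Affymetrix mouse expression arrays. The authors normalized them by RMA with justRMA (R 2.11.1, per the labels), and the deposited values are log2 expression of 45101 probe sets, used as deposited. As in the authors' methods, probe sets with a linear signal above 50 on 1 array or more were kept and averaged per gene, here only those with a single symbol, which gave 11940 genes. The authors tested with SAM, which was not installed. The 4 group means were instead fitted over all 8 arrays with limma 3.58.1 (lmFit and eBayes, R 4.3.3), as two-sided tests adjusted by Benjamini-Hochberg across all genes within each contrast, with calls at an adjusted p under 0.05. The fit was tested on simulated data.

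Arrays give no read counts, and their number limits the precision. Nothing says that duplicates came from separate infections, so p-values measure the spread within these lines. The 10 genes and all gene lists were chosen with earlier results of these data known. All 10 genes are named. Of other lists up to 4 called genes with the largest change are, of which not all are printed, beside some others (Dnmt3b, Pou5f1, Stat3, Fgf4, Nanog, Dppa3, Jak1, Tcl1b3, Nodal and Sall2), which were chosen after their values were seen. Alternatives were no minimum or one of 100, each gene's brightest probe set, quantile normalization, centring, a fit of only the groups compared, a replicate block, array weights, a trended and robust prior, and dropping each array.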

Additional observations from a re-analysis of the deposited data

Results flagged for a closer look

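Nr0b1 and Prdm14 stood out because withdrawal of doxycycline moved them differently in the F266A and the WT line. The interaction was -0.68 ± 0.11 for Nr0b1 (limma, adjusted p = 0.00924) and -0.58 ± 0.09 for Prdm14 (adjusted p = 0.00973), both with lower values in F266A -dox. In the WT line alone neither was called on withdrawal. Line and mutation cannot be told apart, since 1 line of each kind was measured.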

How the results depend on the processing

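Per gene and contrast, 1112 values kept their side of the threshold over the alternatives, 45 lost the call and 23 gained one, and 0 changed sign from a called value. All 10 genes stayed called between F266A -dox and WT +dox, and 9 between F266A -dox and WT -dox, whichever array was left out. Leaving out each array gave 6 to 7 called genes for WT -dox against WT +dox, 6 to 9 for F266A +dox against WT +dox, 7 to 9 for withdrawal in F266A, 0 to 1 for F266A +dox against WT -dox and 2 to 3 for the interaction. Over all genes it gave 2360 to 3918, 1931 to 3511, 1009 to 2268, 633 to 1732 and 174 to 689 calls in these comparisons, and 1947 to 3227 for F266A -dox against WT -dox. For F266A +dox against WT -dox the 10 genes gave 3 calls with a minimum of 100, 2 with the brightest probe set, 2 after quantile normalization, 4 with a trended and robust prior (3 lower and 1 higher, Klf4) and 3 with array weights. The interaction called 4 of the 10 with a minimum of 100, 4 after quantile normalization and 6 with a trended and robust prior, which called 1110 genes in all. With no minimum, 1537 genes were called for withdrawal in F266A, 1059 for F266A +dox against WT -dox and 290 for the interaction. That setting also averages low probe sets into Tfcp2l1, Tbx3, Klf5 and Nr5a2, whose differences between F266A -dox and WT +dox became -0.44, -0.89, -0.24 and -0.74, all still called. In other comparisons Tfcp2l1 (-0.24 to -0.17) and Klf5 (-0.22 to -0.02) then lost 3 calls each. Other causes were not tested. Klf2 and Klf5 lost their calls on withdrawal in F266A under 12 of 17 settings each.

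Deviations of replicates with the same number correlated within a line at r = 0.165 (F266A) and 0.129 (WT). Between lines r was -0.176 to -0.111, so the numbers do not pair the samples across lines. A separate pairing within each line was not tested. With a replicate block the calls of Klf2 (adjusted p = 0.0717) and Klf5 (adjusted p = 0.0633) on withdrawal in F266A were lost. For F266A +dox against WT -dox, 1 probe set of the 10 genes, in place of 2, was called, Tbx3 probe set 1437479_x_at being lost. Called probe sets also went from 13 to 12 on withdrawal in each line, from 15 to 14 for F266A +dox against WT +dox, and from 3 to 2 for the interaction. The block changed no other call of a gene. With 2 arrays a group, precision rests on the shared estimate of spread, and the smaller differences, of about 0.25, stand near what it can resolve.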
